A study of Mus musculus with 6 samples.

Results

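Expression of 8 SOX transcription factor genes, Sox4, Sox11, Sox12, Sox6, Sox13, Sox7, Sox15 and Sox21, was followed in GFP-positive hair bulge (HB) keratinocytes and their progeny with and without integrin α3β1. The members were taken by gene symbol from a table of read counts that holds 22295 genes. They were named with the comparison of K19 *Itga3* KO with WT already known, Sox4 because it differs between the genotypes and the others as its relatives. The KO to WT differences of these 8 genes are therefore given as a description, with standard errors (SE) but without p-values.

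The data came from 6 strand-specific libraries of polyadenylated RNA, 3 of each genotype (K19 *Itga3* KO, K19 *Itga3* WT), from mice bred on FVB. WT mice carried K19(Cre-ERT), an inducible Cre driven by the promoter of the HB keratin K19, together with the mTmG reporter, which switches a cell and its progeny to GFP once Cre has acted. KO mice carried the same 2 transgenes and in addition floxed Itga3 alleles (Itga3 fl/fl), so Cre and GFP were common to both groups and Itga3 is deleted only where Cre has acted. Per the labels, all mice were 6 weeks old when tamoxifen was given for 4 days, and they received 30 μg of the mutagen DMBA at 7 weeks and then, as a short-term course, bi-weekly applications of 12.34 μg of the tumour promoter TPA (4 over 2 weeks by the methods of the study), after which GFP-positive keratinocytes of the back skin were sorted. Each library is 1 mouse. Because nothing in the table ties a column to a numbered sample, the libraries of a genotype are called a, b and c in table order, and values listed for a genotype follow that order.

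Libraries held 20578309 to 23670507 counts, and 3 counts, taken as the detection floor, were worth 0.127 to 0.146 CPM (counts per 1e6 counts of the library). CPM values were scaled with TMM factors, which lay between 0.981 and 1.03. The targeted gene Itga3 stood at 371, 252 and 271 CPM in the WT libraries, against 131, 124 and 134 CPM in the KO libraries, so every KO library lay below every WT library (log2 fold change −1.20 ± 0.13 SE, adjusted p = 0.00283 by quasi-likelihood test in edgeR over 21681 genes). This adjusted p was 0.130 without WT c and 0.0934 without KO a. Keratinocyte identity was checked with 6 markers, of which Krt5 was highest, and their summed level was 31649 to 48483 CPM in WT and 37586 to 43291 CPM in KO libraries. Summed levels of 7 endothelial markers did not exceed 9.04 CPM in any library and those of 7 immune markers did not exceed 13.7 CPM. The 8 fibroblast and dermal papilla markers summed to 116 to 178 CPM in WT and 48.1 to 80.4 CPM in KO libraries, mostly from Col1a1 and Col1a2, while Lum, Rspo3 and Corin stayed at or below 3 counts. Of the 8 log2 fold changes 4 were positive (median 0.33), a tally that includes the 3 genes at the floor, whose estimates carry little meaning. In edgeR 5 of 8 had an unadjusted p below 0.05. Col1a1, the most abundant of the list per length, had a log2 fold change of −1.19 (SE 0.32, edgeR adjusted p = 0.127). The 7 melanocyte markers summed to 64.9 to 82.4 CPM in WT and 41.6 to 48.9 CPM in KO libraries, mostly from Mitf, the only gene of the marker lists that passed in edgeR (log2 fold change −0.93, SE 0.14, edgeR adjusted p = 0.0158, limma-voom 0.0699). Of the 7 melanocyte estimates 5 were positive (median log2 fold change 0.23), so the lower sum in KO came from Mitf. DESeq2 called 2 fibroblast, 1 endothelial and 1 melanocyte marker, and limma-voom 0 in these lists. Schwann cell markers summed to 14.3 to 21.3 CPM in WT and 13.6 to 16.3 CPM in KO libraries and 2 Merkel cell markers to at most 5.45 CPM. The part of other cells in the SOX values was not tested.

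SOX proteins are relatives of the sex-determining factor SRY. They bind DNA through an HMG box, which sits in the minor groove and bends the helix, and they usually act together with partner factors. Members are grouped by the similarity of this box. SOXC proteins (SOX4, SOX11 and SOX12) are activators with a transactivation domain at the C terminus, and Sox4 has been linked to TGF-β-induced epithelial plasticity, to hair follicle (HF) stem cell activation and to chemically induced skin tumours. SOXD proteins (SOX5, SOX6 and SOX13) lack an activation domain of their own and pair through a coiled coil. SOXF proteins (SOX7, SOX17 and SOX18) are best known from blood vessels, SOX15 stands alone in SOXG, and SOX21 is a repressor of group SOXB2 that is needed for the cuticle of the hair shaft. Outside these 8, SOX9 maintains HB stem cells.

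Levels of the members differed widely per length, the scale on which genes can be compared (counts per kilobase of exon per 1e6 counts). Sox13 and Sox4 ranked first in both genotypes. In WT libraries Sox13 averaged 15.4 ± 2.61 (SD, n = 3) and Sox4 14.6 ± 1.63 (SD, n = 3) on this scale, and the ranges of the pair overlapped. Next came Sox21 at 10.3 ± 1.68, Sox7 at 7.63 ± 1.02 and Sox12 at 4.71 ± 0.285 (SD, n = 3 each), with no overlap between neighbours in this order. Sox15 followed at 2.24 ± 1.57, and Sox6 at 0.0578 ± 0.0118 (SD, n = 3 each). Sox11 was at or below the floor of 3 counts in all 6 libraries. In KO libraries Sox7, at 10.4 ± 0.856 (SD, n = 3), ranked above Sox21, at 7.58 ± 0.748 (SD, n = 3), and the rest of the order was as in WT. For scale, Sox9 averaged 109.7 ± 11.2 in WT and 122 ± 8.32 in KO (SD, n = 3 each), which was 6.95 to 8.08 times the level of Sox4 per length in WT and 3.56 to 5.09 times in KO libraries.

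**Figure D1:**
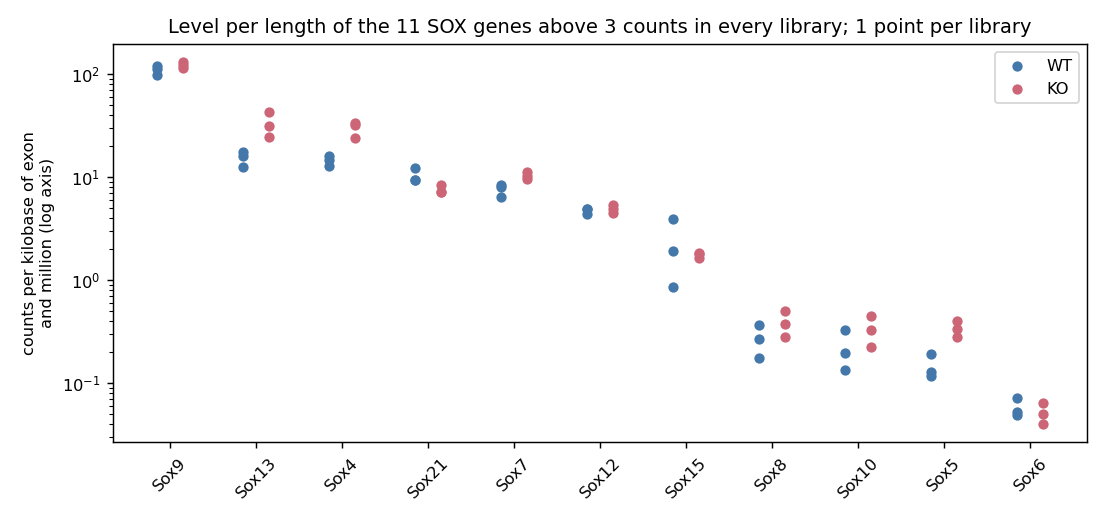
Level per length (counts per kilobase of exon per 1e6 counts, log axis) of the 11 SOX genes above 3 counts in every library, 1 point per library, WT in blue and KO in red. Sox9 lies highest, near 109.7 in WT, Sox13 and Sox4 come next, and Sox6 lies lowest at about 0.0578 in WT.

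All 8 members had a count in at least 1 library and entered the test across all genes, and 7 of them exceeded 3 counts in every library. Of the 8, 3 had every KO library above every WT library (Sox4, Sox13 and Sox7), 1 had every KO library below (Sox21), and 4 overlapped (Sox12, Sox11, Sox6 and Sox15). Over all 21681 tested genes, 8.03% were higher without overlap and 8.23% lower without overlap. Because the genotype contrast took part in choosing the members, nothing is read from their count beside these shares, nor beside the share of genes with an adjusted p below 0.05 in edgeR, which was 0.461% higher and 0.212% lower. The median log2 fold change of the 7 members over the floor was 0.06, while that of all tested genes was 8.82e-05.

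**Figure D2:**
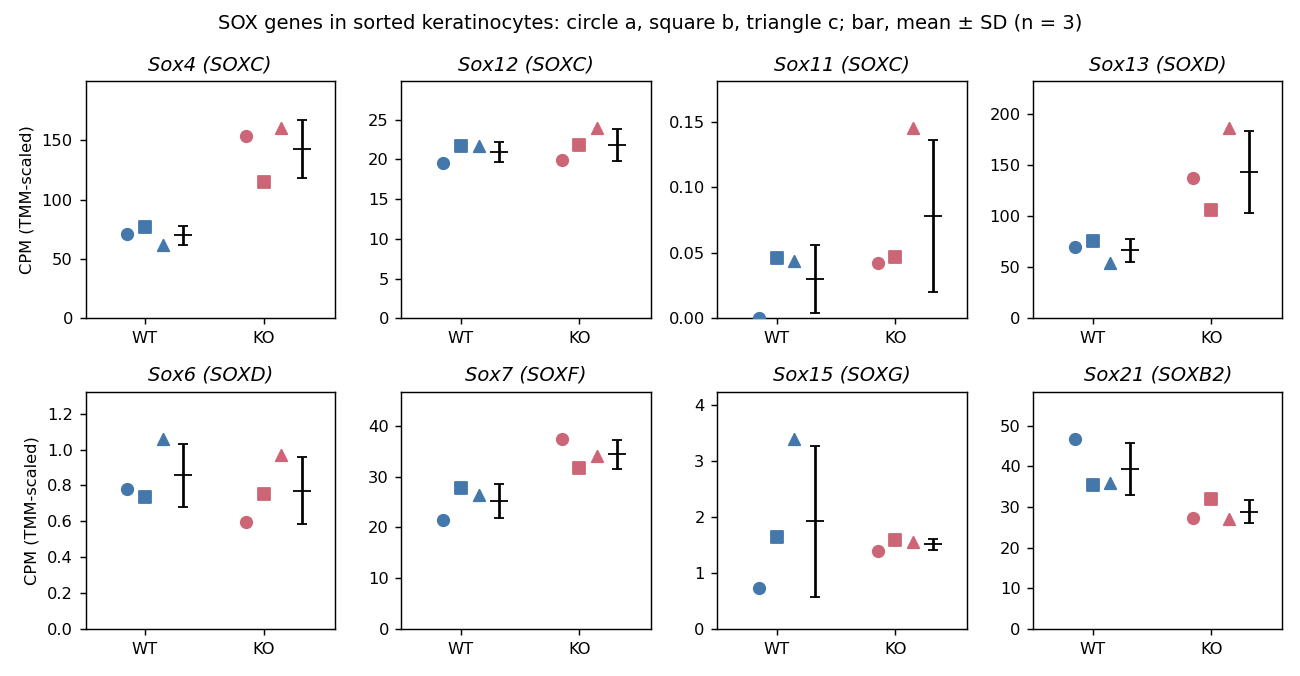
CPM (TMM-scaled) of the 8 SOX genes in each library, WT in blue and KO in red, with library a as circle, b as square and c as triangle, and the mean ± SD (n = 3) as a black bar. For Sox4, Sox13 and Sox7 all 3 KO points lie above the WT points, for Sox21 they lie below, and for Sox12 they overlap.

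Sox4 (ENSMUSG00000076431, GRCm38, chromosome 13, 28948919 to 28953713, minus strand) is a gene of 1 exon. It stood at 71.0, 77.1 and 61.6 CPM in the WT libraries, against 154, 115 and 160 CPM in the KO libraries. KO b was the lowest of the KO libraries and still lay well above WT b, the highest of the WT libraries. The KO mean was 205% of the WT mean, a log2 fold change of 1.03 (SE 0.13). Sox4 had 1397 to 1684 counts in WT and 2453 to 3624 counts in KO, from which counting alone would give a coefficient of variation of 2.55% in WT and 1.79% in KO, against 11.2% and 17.1% observed. The spread of Sox4 within a genotype was thus several times larger than counting error. Omitting 1 library at a time gave log2 fold changes between 0.94 (without KO c) and 1.18 (without KO b), and between 1.02 and 1.04 over the other alternatives in tool, scaling and filter.

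Sox12 (ENSMUSG00000051817, chromosome 2, 152393611 to 152398063), the SOXC relative that these cells also expressed, was nearly flat. Its level was 19.5, 21.7 and 21.7 CPM in the WT libraries, against 19.9, 21.8 and 23.9 CPM in the KO libraries. The groups overlapped, with KO a inside the WT range, KO b just above its upper edge and KO c above it. The log2 fold change was 0.06 (SE 0.12), and with single libraries left out it ran from −0.01 to 0.12. Sox11 (ENSMUSG00000063632, chromosome 12), a close relative of Sox4, had 0, 1 and 1 counts in WT and 1, 1 and 3 counts in KO libraries, and no fold is given for it. Within the SOXC group, Sox4 therefore made up most of the summed level per length, at 77.2%, 76.8% and 72.4% in the WT libraries, against 87.8%, 83.1% and 86.1% in the KO libraries. The means were 75.5% ± 2.62 in WT and 85.7% ± 2.39 in KO (SD, n = 3 each), and the lowest KO library lay above the highest WT library. Nearly all of the remainder was Sox12.

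**Figure D3:**
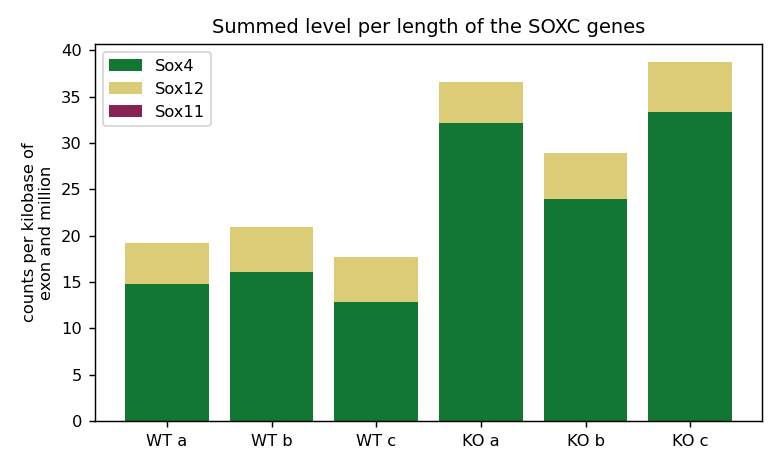
Summed level of the SOXC genes per length (counts per kilobase of exon per 1e6 counts) in each library, stacked as Sox4 (green), Sox12 (yellow) and Sox11 (purple, too low to see). The bars of the KO libraries are taller because of Sox4, which makes up 83.1% to 87.8% of them, while the yellow part keeps about the same height.

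The SOXD gene Sox13 (ENSMUSG00000070643, chromosome 1, 133382303 to 133424377, minus strand), with 14 exons in its longest transcript, gave a pattern like that of Sox4. It stood at 69.5, 75.4 and 53.7 CPM in the WT libraries, against 137, 106 and 186 CPM in the KO libraries. As for Sox4, WT b was the highest and WT c the lowest of the WT libraries, and KO b was the lowest of the KO libraries. The KO mean was 216% of the WT mean (log2 fold change 1.11, SE 0.18, 0.88 to 1.29 with single libraries left out, the lowest without KO c). The ratio of Sox4 to Sox13 in CPM lay between 0.862 and 1.15 over the 6 libraries. Sox6 (ENSMUSG00000051910, chromosome 7, 115471344 to 116038744) was rare, at 14 to 24 counts per library and 0.733 to 1.06 CPM in WT against 0.595 to 0.967 CPM in KO libraries. Its log2 fold change was −0.16 (SE 0.35). With single libraries left out it ran from −0.35 to 0.02, below the range of Sox13. Its spread (coefficient of variation 20.5% in WT and 24.2% in KO) was about what counting alone gives (22.9% and 24.5%). A small difference could therefore not be resolved at this depth.

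Sox5, the remaining SOXD gene, was not among the 8 and was not used to choose them, so a test is given. Its list was nevertheless chosen with earlier results of these data known, and its p-values carry that limit. It had 61, 37 and 42 counts in WT and 113, 86 and 120 counts in KO libraries, which is 2.80, 1.69 and 1.85 CPM in the WT libraries, against 4.80, 4.03 and 5.80 CPM in the KO libraries. The groups did not overlap and the log2 fold change was 1.20 (SE 0.25), yet it missed the threshold in edgeR's fit (adjusted p = 0.0621) and in limma-voom (adjusted p = 0.138). It passed in DESeq2 (adjusted p = 0.00386) and in edgeR without WT a (adjusted p = 0.0151), while the largest adjusted p of any alternative was 0.382 (without WT c).

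Sox7 (ENSMUSG00000063060, chromosome 14, 63943674 to 63950732) is known from endothelium but was well above the floor in these sorted keratinocytes. Its level was 21.4, 27.8 and 26.4 CPM in the WT libraries, against 37.4, 31.7 and 34.0 CPM in the KO libraries, without overlap. The log2 fold change was 0.45 (SE 0.13, 0.35 to 0.53 with single libraries left out). The other SOXF genes were at or below 3 counts in every library, with 0 counts of Sox17 and 3, 0 and 0 counts of Sox18 in WT and at most 1 count of either in a KO library. Among endothelial markers, Cdh5, Tie1 and Emcn stayed at or below 3 counts and Pecam1 was at 0.964, 1.05 and 1.41 CPM in the WT libraries, against 1.87, 1.64 and 1.84 CPM in the KO libraries, higher in KO without overlap as Sox7 was (adjusted p = 0.411 from edgeR). Tek, the most abundant of the list per length, had a log2 fold change of −1.49 (SE 0.33, edgeR adjusted p = 0.0708). Of the 7 endothelial estimates 3 were positive (median log2 fold change −0.18), a tally that includes the 3 genes at the floor. Endothelial markers summed to 6.35 to 9.04 CPM in WT and 4.29 to 5.39 CPM in KO libraries. The level of Sox7 in endothelial cells themselves was not measured here. Whether endothelial RNA adds to the value of Sox7 was not tested.

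Sox21 (ENSMUSG00000061517, chromosome 14, 118233232 to 118237030, minus strand) was the member that was lower in KO. It stood at 46.7, 35.4 and 35.9 CPM in the WT libraries, against 27.3, 32.1 and 27.0 CPM in the KO libraries. The gap between the groups was small, from 32.1 CPM in KO b to 35.4 CPM in WT b. The KO mean was 73.3% of the WT mean (log2 fold change −0.45, SE 0.13), and without WT a, the highest library, the log2 fold change was −0.30. Genes of the hair shaft, to which the known role of Sox21 belongs, and of the inner root sheath were examined beside it as 1 list. Of 15 tested, 3 rose (Krt25, Krt28 and Krt35) and 0 fell at an adjusted p below 0.05 in edgeR. Over all tested genes 0.461% rose and 0.212% fell by this measure. An unadjusted p below 0.05 was found for 6 of 15, and the median log2 fold change of the 15 was 0.46 against 8.82e-05 over all genes. Hoxc13, the most abundant of the list per length, had a log2 fold change of 0.15 (SE 0.12, edgeR adjusted p = 0.681). Krt25, a keratin of the inner root sheath, was low in WT, at 0.176 to 0.641 CPM against a floor of 0.127 to 0.146 CPM. Its KO libraries stood at 4.85, 1.31 and 6.92 CPM, again with KO b closest to WT. In limma-voom 0 of the 15 passed and in DESeq2 3. All 3 edgeR calls were also lost with filterByExpr and without WT c, KO a or KO c. Those of Krt28 and Krt35 (edgeR adjusted p = 0.0461 and 0.0462) were lost with library size only and without WT b as well.

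Sox15 (ENSMUSG00000041287, chromosome 11, 69655314 to 69656727) lies on the chromosome of Itga3. It had 16, 36 and 77 counts in the WT libraries, or 0.734, 1.65 and 3.39 CPM, and 1.40, 1.59 and 1.55 CPM in the KO libraries. The KO libraries lay close together inside the range of the WT libraries, whose coefficient of variation was 70.2% against 15.2% from counting. The log2 fold change of −0.35 (SE 0.44) turned to 0.34 without WT c, so it has no firm direction.

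**Figure D4:**
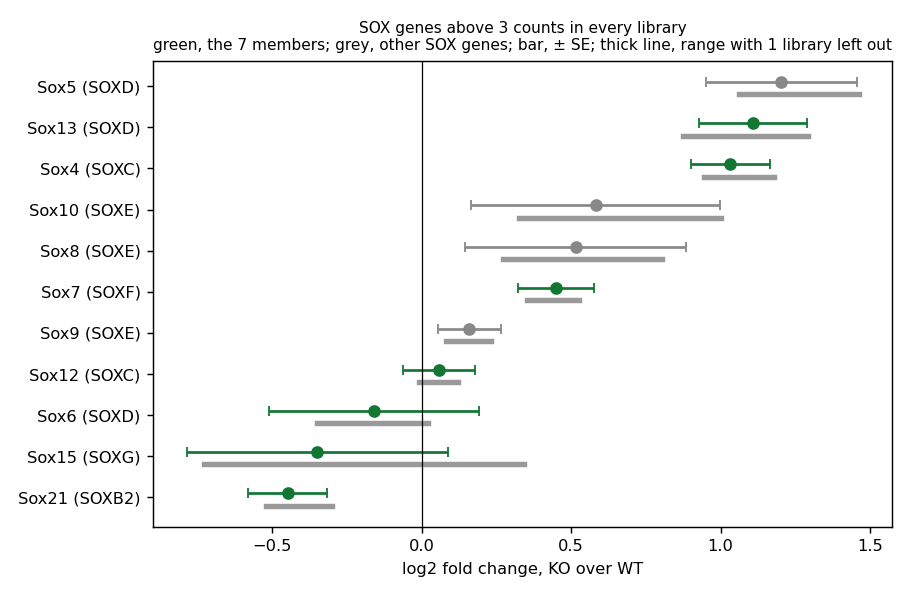
Log2 fold change of KO over WT for the 11 SOX genes above 3 counts in every library, with the standard error as a thin bar and the range over fits with 1 library left out as a thick grey line. Green points are members of the 8 and grey points are other SOX genes. Sox5, Sox13 and Sox4 lie near 1, and the range of Sox15 runs from −0.73 to 0.34.

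Among the other SOX genes, 9 had a row in the table, and Sox1, Sox14 and Sry were not analysed here. With edgeR 0 of the 9 had an adjusted p below 0.05, compared with 0.673% of all tested genes, and 1 (Sox5) had an unadjusted p below 0.05. In limma-voom 0 passed and in DESeq2 1 passed. Sox9 (chromosome 11, 112782224 to 112787760), the HB factor, stood at 495, 463 and 403 CPM in the WT libraries, against 473, 505 and 542 CPM in the KO libraries, with overlap (log2 fold change 0.16, SE 0.10, edgeR adjusted p = 0.633). Sox8 and Sox10, its SOXE relatives, were low, with 12 to 37 and 9 to 29 counts per library, and Sox10, a factor of melanocytes and Schwann cells, had a log2 fold change of 0.58 (SE 0.42, edgeR adjusted p = 0.651). Sox2, Sox3, Sox17 and Sox18 stayed at or below 3 counts, and Sox30 had 2 to 9 counts.

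Promoter sequence was examined because Sox4, Sox13 and Sox21 differed without overlap while Sox12, the relative of Sox4, did not. The 250 bases before the start site, from RefSeq (GRCm38.p6), are printed 5′ to 3′ in the direction of transcription, with matches to any of 6 motifs in capitals.
Sox4, chr13:28953700-28953949, minus strand: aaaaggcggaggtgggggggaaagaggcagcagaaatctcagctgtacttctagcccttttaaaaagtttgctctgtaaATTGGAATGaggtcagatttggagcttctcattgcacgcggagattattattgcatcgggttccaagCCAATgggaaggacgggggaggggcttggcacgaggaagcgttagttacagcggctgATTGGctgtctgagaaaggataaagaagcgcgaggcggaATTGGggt
Sox12, chr2:152398047-152398296, minus strand: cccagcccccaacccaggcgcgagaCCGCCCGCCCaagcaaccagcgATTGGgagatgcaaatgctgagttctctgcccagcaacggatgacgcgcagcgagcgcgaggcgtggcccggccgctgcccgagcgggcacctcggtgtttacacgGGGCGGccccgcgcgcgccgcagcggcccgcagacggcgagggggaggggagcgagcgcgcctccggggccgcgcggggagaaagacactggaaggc
Sox13, chr1:133424213-133424462, minus strand: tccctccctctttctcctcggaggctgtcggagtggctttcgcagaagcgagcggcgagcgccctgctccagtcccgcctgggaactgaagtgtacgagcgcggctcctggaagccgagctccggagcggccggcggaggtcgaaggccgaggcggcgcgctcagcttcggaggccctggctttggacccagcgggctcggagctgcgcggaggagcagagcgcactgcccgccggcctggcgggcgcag
Sox21, chr14:118237031-118237280, minus strand: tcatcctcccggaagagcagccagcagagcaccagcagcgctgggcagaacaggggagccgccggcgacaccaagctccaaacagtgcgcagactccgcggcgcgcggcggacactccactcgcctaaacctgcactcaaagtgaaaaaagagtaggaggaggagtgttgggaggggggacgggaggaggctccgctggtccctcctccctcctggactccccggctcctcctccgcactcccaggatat
The motifs, searched on both strands, were those of AP-1 (TGANTCA, in 6.7% of 32851 promoters), SOX factors (AACAAT, 9.4%), TCF and SOX factors (ACAAAG, 16.5%) and TEAD factors (GGAATG, 12.6%), the GC box (GGGCGG, 32.7%) and the CCAAT box (CCAAT, 33.8%). Sox4 held 4 matches to the CCAAT box and 1 to the TEAD motif, which overlap at 1 place, and Sox12 held 3 matches to the GC box and 1 to the CCAAT box. Neither Sox13 nor Sox21 held a match to any of the 6. The AP-1 letters were absent from all 4 windows, which says only that they are not in these windows. CpG content also set the windows apart, with 11 CpG in Sox4, 35 in Sox12, 31 in Sox13 and 17 in Sox21, against a median of 6 over all promoters. RefSeq promoters were found for 7 of the 8 members, all but Sox7.

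Transcripts opposite to the members were inspected because strand was used in counting. A noncoding RNA on the plus strand, Gm26735 (chromosome 13, 28943048 to 28951671), overlaps Sox4, and it was named after its values were seen. It had 58, 75 and 45 counts in the WT libraries, against 151, 102 and 127 in the KO libraries, with a log2 fold change of 1.102 (SE 0.24, edgeR adjusted p = 0.0663, 0.143 from limma-voom and 0.00481 from DESeq2). Its counts amounted to 3.22% to 4.45% of those of Sox4 in every library. The noncoding transcript Gm4675 opposite Sox21 likewise had 3.40% to 4.53% of the counts of Sox21. Opposite Sox15 lies the end of the protein-coding gene Mpdu1 (chromosome 11, 69656697 to 69662642), with 1082 to 1286 counts per library, many times those of Sox15, and a log2 fold change of −0.11 (SE 0.09, edgeR adjusted p = 0.681). Whether Gm26735 and Gm4675 are transcripts of their own or reads of the sense gene assigned to the wrong strand, and whether reads of Mpdu1 add to Sox15, was not tested. Within 200 kb of the starts of the 8 members lay 49 tested genes, 27 of them near Sox15 and 0 near Sox11 or Sox6. Of the 49, 1 had an adjusted p below 0.05 in edgeR, compared with 0.673% of all tested genes. That gene was Senp3, a SUMO protease gene that is also in the heat map of differentially expressed genes the study made from these libraries, 17.8 kb from Sox15 on chromosome 11. It fell (log2 fold change −0.74, SE 0.10, edgeR adjusted p = 0.00765), while the 26 other neighbours of Sox15 did not pass.

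Genes with the profile most like that of Sox4 were found by Pearson correlation of log2 CPM in the 6 libraries, for 13054 genes that had 10 or more counts throughout. The first 5 were Clip1, Cd44, Fam198b, Kazn and Dapk1, with r from 0.992 to 0.995. Cd44, a hyaluronan receptor, stood at 647, 679 and 624 CPM in WT and 918, 771 and 902 CPM in KO libraries, so its KO libraries were also higher and KO b was also lowest. Sox13 ranked 32nd (r = 0.979), Sox5 218th (r = 0.921) and Sox12 4680th (r = 0.289). With 6 points in 2 genotypes such values mostly restate the difference between genotypes and the order of the libraries within them.

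Genes tied to SOX4 by function were examined as lists. Of 10 tested genes reported as SOXC targets, 0 had an adjusted p below 0.05 in edgeR (2 had an unadjusted p below 0.05, 0 passed in limma-voom and 2 in DESeq2), and their median log2 fold change was 0.05. The pair that passed in DESeq2 went opposite ways. Fscn1, which encodes the actin bundler fascin, was at 50.5, 23.4 and 37.4 CPM in the WT libraries, against 79.9, 50.1 and 78.0 CPM in the KO libraries, with overlap (log2 fold change 0.90, SE 0.24, edgeR adjusted p = 0.128 and 0.0180 from DESeq2). Dll1, which encodes a Notch ligand, was at 25.5, 19.1 and 17.8 CPM in WT and 15.05, 13.0 and 11.8 CPM in KO libraries, without overlap (log2 fold change −0.65, SE 0.16, edgeR adjusted p = 0.104 and 0.0211 from DESeq2). Tnc, the most abundant of the list per length, had a log2 fold change of 0.09 (SE 0.23, edgeR adjusted p = 0.898) and overlapped between the groups.

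Upstream and partner genes were examined in the same way. Of 11 tested genes of the TGF-β pathway, an inducer of Sox4 in other cells, 0 passed in edgeR, limma-voom or DESeq2 and 0 had an unadjusted p below 0.05, although 9 of 11 estimates were positive (median log2 fold change 0.22, against 8.82e-05 over all genes). Of 6 genes of SOX4 protein partners, among them Sdcbp, Trp53 and Ctnnb1, 0 passed in the 3 tools and 1 had an unadjusted p below 0.05 in edgeR (Pou3f1). The TCF/LEF genes carry an HMG box as well, and of these together with Ctnnb1 0 of 5 passed in the 3 tools, with 1 at an unadjusted p below 0.05 in edgeR (Tcf7, log2 fold change 0.45, SE 0.14, adjusted p = 0.205).

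Genes of the cells' identity were set beside the SOX genes. Among 11 HB stem cell factors, 1 fell (Cd34, log2 fold change −0.72, SE 0.14, edgeR adjusted p = 0.0462, limma-voom 0.119) and 0 rose, and their median was −0.11. Krt15, the most abundant of them, had a log2 fold change of −0.21 (SE 0.17, edgeR adjusted p = 0.681). Of 19 epidermal differentiation genes 17 had a positive estimate (median log2 fold change 0.45), and 11 had an unadjusted p below 0.05 in edgeR. At an adjusted p below 0.05 in edgeR 5 of them rose (Sbsn, Sprr1a, Klk5, Klk7 and Klk8) and 0 fell. By this measure 0.461% of all tested genes rose and 0.212% fell. Sbsn, Sprr1a and Klk5 are in the heat map the study made from these same libraries. All 5 were measured in these libraries, so the direction of none of them is independent evidence. Klk7 and Klk8 did not pass in limma-voom (adjusted p = 0.0929 and 0.128). In limma-voom 3 of the 19 passed and in DESeq2 6. Krtdap, the most abundant of the 19 per length, had a log2 fold change of 0.26 (SE 0.14, edgeR adjusted p = 0.553). More cells of a type and more RNA of a gene per cell cannot be told apart in such bulk libraries, for the SOX genes as for these. Calls depended on single libraries: of the 74 tested list genes outside the SOX family 9 passed in edgeR with all libraries and 0 without WT c, where 20 still had an unadjusted p below 0.05.

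**Figure D5:**
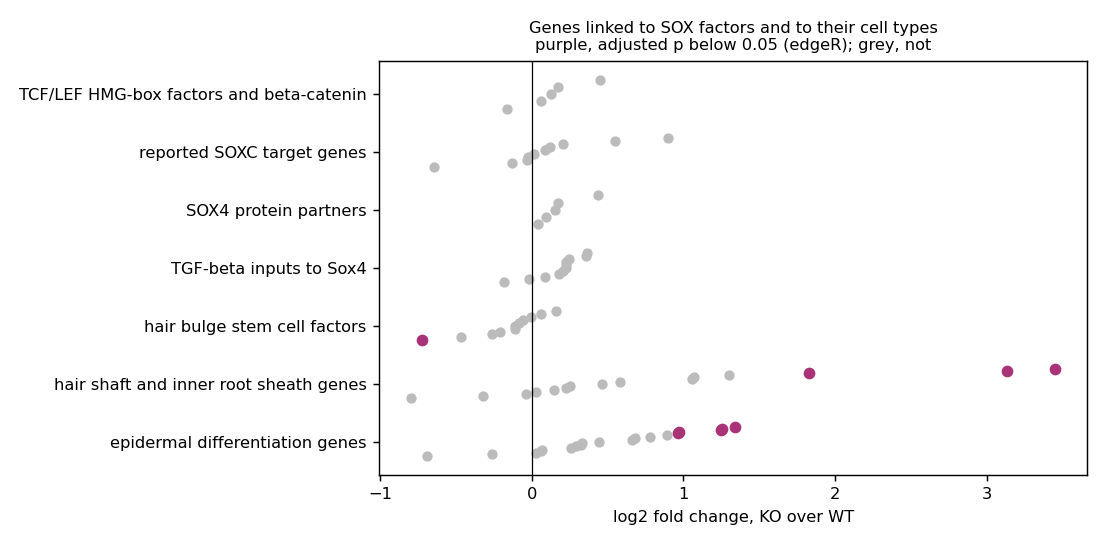
Log2 fold change of KO over WT (horizontal axis) for the genes of each list with more than 3 counts in at least 1 library, 1 point per gene, purple where edgeR's adjusted p is below 0.05. The SOXC targets, SOX4 partners, TGF-β and TCF/LEF genes hold no purple point, 1 HB factor (Cd34) lies at −0.72, and 3 hair and 5 epidermal genes lie to the right.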

How the data were processed

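GFP-positive keratinocytes of 3 K19 *Itga3* WT and 3 KO mice were profiled. The authors aligned reads to mouse build 38 (TopHat2 2.1.0 on Bowtie 1.1 in the submitters' notes) and deposited uniquely mapped, strand-aware counts per gene, without normalization or pooling. Reads with several matches are lost, so genes with near-identical copies can be undercounted.

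Genes with a count in at least 1 library (21681 of 22295) were tested with edgeR 4.0.16 (R 4.3.3, TMM factors, glmQLFit, glmQLFTest, Benjamini-Hochberg adjustment), and standard errors are the absolute log2 fold change divided by the square root of F. Alternatives were limma-voom (limma 3.58.1), DESeq2 1.42.0, RLE factors, library size only, filterByExpr, no filter, and each library left out. The code was tested on simulated data. Exon lengths came from GENCODE M21 (98.9% of genes matched), and coordinates from the count table. Of 20 SOX genes, 17 matched, and of 141 list entries, 131.

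The members and lists were chosen with earlier results of these data known. Genes named were Itga3, all SOX genes, the called genes of each list, the most abundant gene of most lists, the 5 most like Sox4, and called neighbours. Gm26735, Gm4675, Mpdu1, Fscn1, Dll1, Tcf7, Pou3f1, Sdcbp, Trp53, Pecam1, Col1a2 and markers given as at or below the floor were named after their values were seen. Depth was 20578309 to 23670507 counts per library. The floor and the coefficients of variation given for counting alone cover counting error only. SD, SE and p-values cover the spread between these samples.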

Additional observations from a re-analysis of the deposited data

How the results depend on the processing

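No paired analysis was possible because the numbers in the column names match no sample number of the labels, and nothing ties a KO mouse to a WT mouse. With single libraries left out, the log2 fold changes ranged over 0.94 to 1.18 for Sox4, 0.88 to 1.29 for Sox13, 0.35 to 0.53 for Sox7, −0.52 to −0.30 for Sox21, −0.01 to 0.12 for Sox12, −0.35 to 0.02 for Sox6 and −0.73 to 0.34 for Sox15, so Sox12, Sox6 and Sox15 did not keep their sign. The number of genes called over the whole table was far less stable. It was 146 with edgeR, 24 with limma-voom, 546 with DESeq2 and 15 with filterByExpr, and it ran from 5 (without WT c) to 521 (without WT a) with single libraries left out, with 10 without KO a and 30 without KO c. For Itga3 the log2 fold change ran from −1.31 to −1.01, and its adjusted p from edgeR was 0.130 without WT c and 0.0934 without KO a. Mitf, Cd34, Krt25, Krt28 and Krt35 each lost the call without WT c, KO a or KO c. Cd34, Krt28 and Krt35 also lost it without WT b. The adjusted p from edgeR reached 0.241 for Mitf and 0.379 for Cd34. Of the other SOX genes 1 was called by DESeq2 and 0 to 1 with single libraries left out. Of the list genes (74 tested, 71 with filterByExpr) 3 were called by limma-voom, 3 with filterByExpr and 0 (without WT c) to 12 (without WT a) with single libraries left out. Without WT c, 20 list genes had an unadjusted p below 0.05. With the length of the longest transcript the level of Sox6 was 0.0989 in WT and 0.0889 in KO counts per kilobase per 1e6 counts. The cause of these shifts was not tested. Depth limits what can be said of Sox11 and Sox6, the members with the fewest counts.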
